A study of Drosophila melanogaster with 6 samples.

Results

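CG31220, CG31219 and CG7432 are 3 neighbouring genes on chromosome arm 3R of Drosophila melanogaster, which carry serine protease names among their RefSeq synonyms and whose RNA was near silent in the control ovaries of this study and plainly present in the mutant ovaries. They were chosen by identifier from the gene rows of the deposited count table because of that difference, so their own values in the 2 genotypes are given as a description, with no test. They are 3 of the 17633 genes in the table, which also holds 127 transposon families. All 3 were among the 9150 genes that passed the filter on low counts, and each passed it through the group in which it is high. The series asks how the transcription factor Traffic jam and the flamenco (flam) locus, from which follicle cells make piRNAs that silence transposons, act in the ovary.

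The 6 libraries, 3 for each of 2 genotypes, hold messenger RNA from ovaries of flies that were 3 to 6 days old. The homozygous group carried flamDeltaProm, a deletion of the flam promoter, on both X chromosomes. The control group carried flamDeltaProm over FM7, a balancer X chromosome with many inversions, so every library came from flies with at least 1 copy of the deletion. Chromosomes 2 and 3 are labelled + in both groups. Titles write WT for the other X chromosome of the controls, but FM7 stands in the genotype field, and that name is used here (FM7 replicate 1 is control 1, and so on). Whether each replicate was its own pool of animals is not in the labels, so a p-value measures only how far these samples vary, and that variation may be technical. Ovaries with a knockdown of traffic jam, which the series text also mentions, were not analysed here.

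Serine proteases of the trypsin type are secreted as inactive precursors that another protease cuts. Those with a clip domain, a small disulphide-knotted region before the catalytic part, act one after another in extracellular cascades. In the fly, such cascades cut the ligand Spätzle to activate the Toll receptor, in the embryo to set the dorsoventral axis and after infection to switch on immune genes, and they activate prophenoloxidases for melanisation. Serpins are the inhibitors that trap these proteases. Among the synonyms that RefSeq lists, CG31220 carries the clip-type serine protease names c-SP6 and cSP229, CG7432 carries c-SP19, and CG31219 carries SP228. CG31220 and CG31219 share the older names CG16731 and SP6. No role of any of the 3 in a cascade is given in the sources used here.

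The 3 genes lie in a row on the plus strand. In the Ensembl annotation of assembly BDGP6.54, which may differ from the build the authors used, CG31220 (FBgn0051220) runs from 19648487 to 19650586 on 3R with 4 exons and 1421 exon bases. CG31219 (FBgn0051219) starts 431 bases after its end and runs from 19651018 to 19652430, with 3 exons and 1139 exon bases. CG7432 (FBgn0038727) starts 12576 bases further on and runs from 19665007 to 19670827, with 7 exons and 2921 exon bases. Between CG31219 and CG7432 lie CG6184, on the minus strand, and ort, on the plus strand. CG6184 overlaps the last 62 bases of CG31219, 5.44% of its exon bases, all in its last exon. A fragment of the transposon 1360, 97 bases long, lies across the end of the second exon of CG31220 and covers 60 of its exon bases. None of the 3 genes had the same counts as another gene in all 6 libraries.

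The libraries held 19564819 to 23181058 counts. Levels are given as CPM, counts per 1000000 library counts after TMM scaling of library sizes. RNA of flam was at 0.507, 0.251 and 0.76 CPM in homozygotes 1 to 3 and at 1.93, 1.97 and 1.92 CPM in controls 1 to 3, so it was lower in every homozygote (log2 fold change -1.93, SE 0.39, adjusted p = 0.0119 by edgeR's quasi-likelihood test). Of 12 ovary marker genes of germ cells and follicle cells, all were tested, 5 were lower in homozygotes and 0 higher by edgeR. At an unadjusted p under 0.05, 2 were higher, as was 1 by DESeq2 and 0 by limma-voom. The 5 were tj, the yolk protein genes Yp1 and Yp2 and the vitelline membrane genes Vm26Ab and Vm34Ca. The germ cell markers vas, nanos, osk, otu, ovo and bam missed the threshold, as did Yp3. The markers summed to 8853 to 10820 CPM in homozygotes and 16000 to 17760 CPM in controls, sums made up largely of yolk protein and vitelline membrane genes. osk was at 1561 CPM in homozygotes and 1566 CPM in controls. tj was one of those that fell, to 61.2 ± 4.75 from 112 ± 9.8 CPM (SD, n = 3, log2 fold change -0.87, SE 0.08, adjusted p = 5.5e-04 by edgeR's quasi-likelihood test). FM7 replicate 2 lay apart from the other controls on the second principal component (12.8% of the variance), at 29.8 against -12.8 and -10.7, while in counts FM7 replicate 3 differed most from the other controls (chi-square per degree of freedom 39.8 and 41.6, against 8.61 between FM7 replicates 1 and 2). Gut-type serine proteases such as Jon25Biii summed to 339 CPM in FM7 replicate 2, against 0.359 and 1.31 CPM in FM7 replicates 1 and 3 and 2.03 to 5.96 CPM in homozygotes. In whole ovaries, fewer cells of a type and less RNA per cell cannot be told apart.

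CG31219 had by far the most RNA of the 3 genes. Homozygotes 1 to 3 had 550, 709 and 516 counts, and controls 1 to 3 had 4, 5 and 2. The groups did not overlap, as was the case, with homozygotes above, for 21.6% of all tested genes. The mean level was 24.9 ± 4.19 CPM in homozygotes and 0.18 ± 0.0861 CPM in controls (SD, n = 3 each). The ratio of summed counts, scaled by library size, was 141 (exact 95% interval 78.8 to 284, for counting error only). Homozygote 2 was highest, at 29.6 CPM, and its exact interval of 27.5 to 31.9 CPM lay above those of homozygotes 1 (21.3 to 25.3 CPM) and 3 (19.9 to 23.7 CPM).

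CG31220, the gene just upstream, was detected at a much lower level. Homozygotes 1 to 3 had 22, 55 and 28 counts of it, whereas controls 1 to 3 had 0, 0 and 1. All 3 homozygous libraries were above all controls. The mean was 1.47 ± 0.729 CPM in homozygotes and 0.0156 ± 0.0271 CPM in controls (SD, n = 3 each). With a single control count, the scaled ratio of 92.0 has an exact 95% interval from 16.2 to 3668. Without FM7 replicate 3, which holds that count, CG31220 was at least 20.2-fold higher, taking 3 counts as the floor for the other controls together. Homozygote 2 was again the highest, and its exact interval of 1.73 to 2.99 CPM began above the upper ends for homozygotes 1 (1.41 CPM) and 3 (1.71 CPM).

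CG7432 was the least abundant of the 3 for its length. It had 22, 29 and 24 counts in homozygotes and 3, 0 and 0 in controls. The groups did not overlap, and the exact intervals of the homozygous libraries overlapped one another. The mean was 1.05 ± 0.145 CPM in homozygotes and 0.0448 ± 0.0776 CPM in controls (SD, n = 3 each). The scaled ratio was 21.9 (exact 95% interval 7.21 to 109), and without FM7 replicate 1, which holds all 3 control counts, CG7432 was at least 14.1-fold higher by the same floor. In a control library with 0 counts, the floor of 3 counts equals 0.134 to 0.16 CPM, and the exact 95% interval reaches 0.165 to 0.196 CPM. In those libraries, controls 1 and 2 for CG31220 and controls 2 and 3 for CG7432, RNA was not detectable at this depth rather than shown to be absent.

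**Figure D1:**
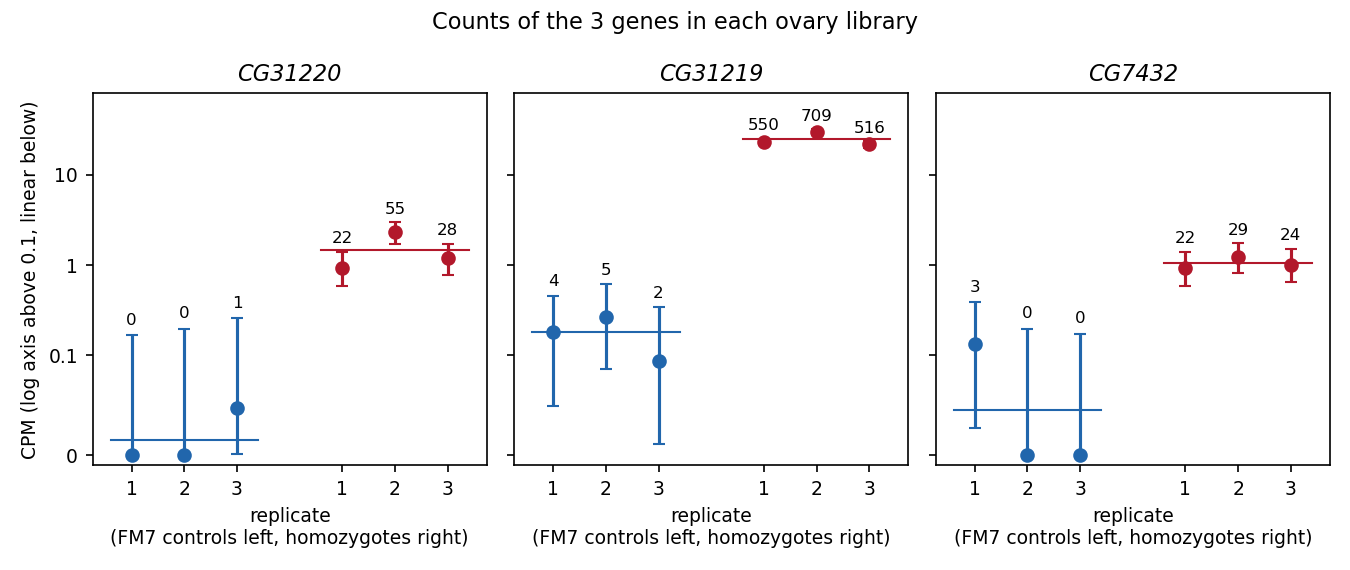
Level of each gene in each library, in CPM on an axis that is logarithmic above 0.1 and linear below. Points are libraries with their counts printed above, bars are exact 95% intervals for counting error, and lines are group means. The homozygous libraries, on the right of each panel, lie above all controls, and CG31219 has 516 to 709 counts where the other genes have 22 to 55.

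The levels of the 3 genes were unequal in the homozygotes when compared per length. CG31219 was at 21.9 ± 3.68 CPM per kb of exon, CG31220 at 1.03 ± 0.513 and CG7432 at 0.36 ± 0.0498 CPM per kb (SD, n = 3). In that order no neighbouring levels overlapped between libraries, since CG31220 ranged from 0.654 to 1.62 CPM per kb and CG7432 from 0.318 to 0.415 CPM per kb. CG31219 thus took 89.4% to 92.6% of the counts of the 3 genes in each homozygote. Per length it had 31.2, 16.1 and 23.0 times the level of CG31220 in homozygotes 1 to 3, so the ratio between these genes, 431 bases apart, was not constant. Its ratio to CG7432 varied less, at 64.1, 62.7 and 55.1 per length. Set against the 9144 tested genes with an annotated length, the homozygous level of CG31219 per kb was above that of 55.4% of genes, that of CG31220 above 11.3% and that of CG7432 above 3.78%. In the controls the same shares were 3.61%, 0.131% and 0.164%. By fitted fold change the 3 genes ranked 6 (CG31219), 10 (CG31220) and 38 (CG7432) among the tested genes, of which 3.72% had at least a 4-fold higher value (log2 of 2) in homozygotes. These ranks describe the values by which the genes were picked.

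The tested genes closest to the 3 on either side missed the threshold. Upstream, CG6195, the nearest gene to CG31220 on that side, was at 74.8 ± 3.19 CPM in homozygotes and 80.7 ± 5.58 CPM in controls (SD, n = 3, log2 fold change -0.11, SE 0.07, adjusted p = 0.267 by edgeR). Nup58, which encodes a nuclear pore protein, and Vha13, which encodes a subunit of the vacuolar proton pump, also missed the threshold, with log2 fold changes of -0.03 and -0.06. Downstream, Naam, the nicotinamidase gene that starts just after CG7432, was at 9.9 ± 0.622 and 9.46 ± 0.838 CPM (log2 fold change 0.07, SE 0.12, adjusted p = 0.728). Both genes between CG31219 and CG7432 were too low to be tested. CG6184 had 11, 5 and 9 counts in homozygotes and 6, 3 and 5 in controls, a scaled ratio of 1.57 (exact 95% interval 0.783 to 3.26) beside the 141 of CG31219, whose end it overlaps. ort, which encodes a histamine-gated chloride channel of the visual system, had 2, 6 and 5 counts in homozygotes and 0 in each control, which is at least 3.8-fold higher if the controls together are set to 3 counts. ort is not among the chosen genes and was named after its values were seen.

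Of 9 other tested genes within 50 kb of the outermost of the 3, 3 were higher in homozygotes by edgeR (adjusted p under 0.05) and 0 lower, against 11.7% higher and 7.75% lower of all tested genes. None was lower at an unadjusted p under 0.05, by DESeq2 or by limma-voom. CG16727 rose most, with 216, 193 and 143 counts in homozygotes and 7, 19 and 25 in controls (log2 fold change 3.22, SE 0.42, adjusted p = 0.00236 by edgeR). CG17751 had 308, 224 and 165 counts against 10, 30 and 45 (log2 fold change 2.82, SE 0.50, adjusted p = 0.0107 by edgeR). These genes and CG17752 stand in a row, with starts at -41.2 to -35.1 kb from the start of CG31220, and belong to the organic ion transporter type of membrane proteins. CG17752, between them, had 750, 535 and 347 counts against 24, 127 and 127, and with a wide spread it missed the threshold (log2 fold change 2.33, SE 0.68, adjusted p = 0.0796 by edgeR). In this row homozygote 1 was highest and control 1 lowest, whereas homozygote 2 was highest for each of the 3 proteases, for CG7432 within counting error. subdued, a calcium-activated chloride channel gene of the anoctamin family, rose by a smaller amount, with 642, 769 and 684 counts against 443, 375 and 423 (log2 fold change 0.56, SE 0.08, adjusted p = 0.00292 by edgeR). CG6231, between that row and subdued, missed the threshold (log2 fold change -0.01, SE 0.11, adjusted p = 0.952). None of the 3 calls was lost when any 1 library was left out, and the highest adjusted p was then 0.0406, for CG17751.

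**Figure D2:**
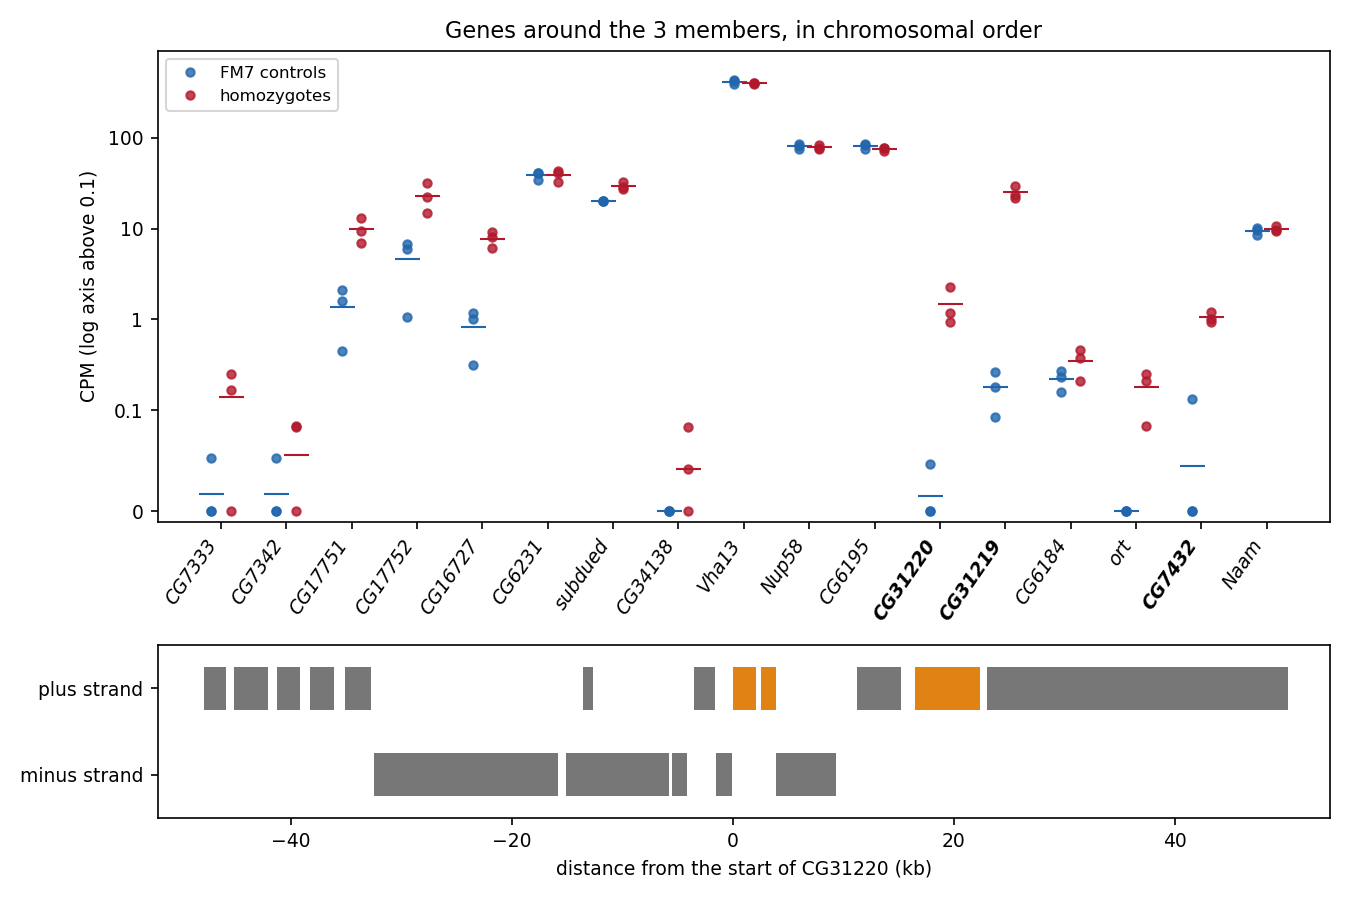
Upper panel, level in CPM of each gene in the table within 50 kb, in order along the chromosome, on an axis that is logarithmic above 0.1, with 1 point per library and a dash for the mean. Lower panel, extent and strand of these genes against distance from the start of CG31220 in kb, with the 3 proteases in orange. Nup58, CG6195 and Naam have overlapping groups on either side, and a further row, CG17751 to CG16727, starts at -41.2 to -35.1 kb.

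The reference strain has annotated copies of transposons near these genes, of which the family blood was higher in homozygotes and 1360 missed the threshold. The family 1360, a fragment of which lies in CG31220, had 70, 43 and 70 counts in homozygotes and 60, 54 and 53 in controls (log2 fold change -0.06, SE 0.27, adjusted p = 0.895 by edgeR). The LTR retrotransposon family blood has an annotated copy of 7411 bases on the plus strand of 3R from 19705574 to 19712984, 34.7 kb beyond the end of CG7432. Over all copies, blood was at 853 ± 99.5 CPM in homozygotes and 56.8 ± 4.38 CPM in controls (SD, n = 3, log2 fold change 3.91, SE 0.10, adjusted p = 3.7e-07 by edgeR). Counts per family do not tell copies apart, Naam lies between this copy and CG7432 and missed the threshold, and the part of any copy in the result was not tested.

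Rows of neighbouring genes that are all far higher in homozygotes were uncommon. When the 8739 tested protein-coding genes were ordered by start, 29 of 8727 overlapping sets of 3 consecutive tested genes had a fitted log2 fold change of at least 2 throughout, in 12 separate runs. Among these sets, CG31220, CG31219 and CG7432 had the highest minimum, at 4.31. They are consecutive only among tested genes, since CG6184 and ort, between CG31219 and CG7432, were too low to be tested. The next were the gustatory receptor genes Gr64d, Gr64e and Gr64f, at 3.43, and the Nimrod genes NimB4, NimB5 and NimC1, at 3.17. The row of CG17751, CG17752 and CG16727, with a minimum of 2.33, was also among them. Since the 3 proteases were chosen for their rise, their place in this order is a description.

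The 3 proteases can be set beside the rest of their family. RefSeq names of the serine protease type, SP or SPH with a number, are carried by 260 other genes in the table. The list was put together after the table was seen but not by its values. It rests on names, with no check of protein sequence, so it may hold genes that are not proteases. SP1173, among those called higher, and tyn, among those called lower, are in it by name alone. Of the 260 genes, 60 were tested, 14 were higher (23.3%, against 11.7% of all tested genes) and 4 lower (6.67%, against 7.75%) in homozygotes by edgeR, with a median log2 fold change of 0.59 against -0.0094 over all tested genes. Without FM7 replicate 2, the library with gut protease RNA, 17 were higher and 2 lower, and without homozygous replicate 3, 8 were higher and 2 lower. Sp212 was at 0.803, 0.544 and 0.717 CPM in homozygotes and 0.134, 0.106 and 0.0469 CPM in controls (log2 fold change 2.77, SE 0.49, adjusted p = 0.00641 by edgeR). It was followed by CG9372 (2.48), CG8586 (2.40), CG31326 (2.29), Corin (2.15), a gene related to a mammalian heart protease, and CG4259 (1.85), whose call needed homozygous replicate 3 and all FM7 replicates (adjusted p up to 0.102 when one of these was left out). By control levels alone, Sp212 and these genes would not have passed the filter on low counts, so they were tested through the homozygotes. For such genes the filter itself favours a higher call, which also bears on the share called higher. The 4 that fell were tyn (-1.10), ndl (-1.10), CG4998 (-1.05) and CG1632 (-0.97), of which tyn and CG4998 kept their call in all 6 fits without 1 library. No other tested gene of the list had a fitted fold change as large as those of CG31219, CG31220 and CG7432, which took ranks 1, 2 and 3 of 63. In level per length, CG31219 rose from rank 102 in controls to rank 2 in homozygotes among all 263 numbered genes. Since the 3 were chosen for their rise, these ranks are a description.

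Few genes of this list with as few control counts reached the homozygous counts of these 3. In controls, 157 of the other 260 had no more than the 11 counts of CG31219. In homozygotes their median was 2 counts, 52 of them had none, and 2 reached the 75 counts of CG7432. These, named after their values were seen, rested on 1 library each. Ser7 had 80, 6 and 16 counts in homozygotes and CG31267 had 80, 5 and 0. Both were highest in homozygote 1, whereas CG31220, CG31219 and CG7432 were highest in homozygote 2, for CG7432 within counting error. Some others rose from as few control counts. Sp212 (49 counts in homozygotes and 6 in controls), Corin (47 and 9) and CG10764 (34 and 9) were called higher by edgeR. With so few control counts they passed the filter through the homozygotes and could be tested only if higher, so these calls are a description. Both limits, 11 and 75 counts, come from the chosen genes, and the share over all genes with as few control counts was not computed. The 2 of 157 therefore describe this list and do not set the 3 genes apart from other genes.

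**Figure D3:**
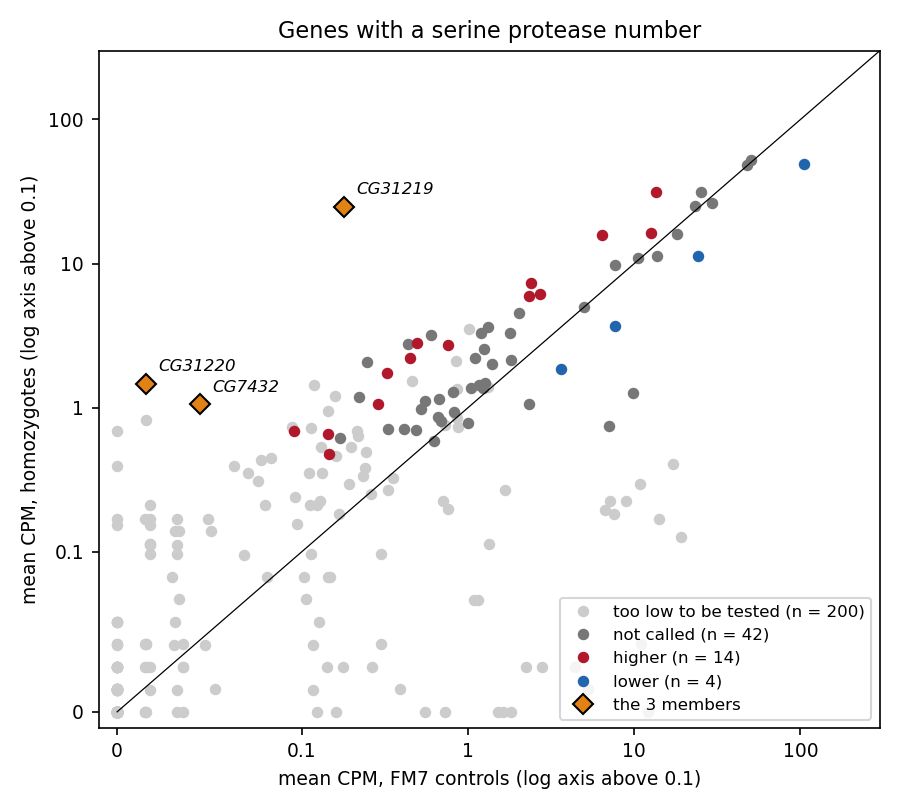
Mean level in homozygotes against mean level in FM7 controls, in CPM on axes that are logarithmic above 0.1, for 260 genes with a name of the serine protease type (circles) and the 3 neighbouring genes (diamonds), with a line of equal levels. CG31219 lies far above the line at 24.9 against 0.18 CPM, and grey points at the lower right are mainly gut proteases high in FM7 replicate 2.

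Other clip-type proteases form the group to which the names of CG31220 and CG7432 belong. Of 50 such genes besides these, 20 were tested, 6 were higher (30%, against 11.7% of all tested genes) and 1 lower (5%, against 7.75%) by edgeR, with a median log2 fold change of 0.73. CG5390 went from 6.39 ± 0.555 to 15.7 ± 3.15 CPM (SD, n = 3, log2 fold change 1.3, SE 0.16, adjusted p = 0.00196 by edgeR). CG9372, CG8586, CG3505 (1.85), scaf (1.34) and MP1 were the others that rose, and scaf lost its call without homozygous replicate 3 (adjusted p = 0.0528). CG4998 was the one that fell. In each case the change was smaller than that of the 3 neighbours, a difference fixed by how those were picked.

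Proteases with a known place in the Toll and melanisation cascades were taken as a list of their own. Of 15 in the list, 10 were tested, 2 were higher (20%, near the 11.7% of all tested genes) and 1 lower (10%, against 7.75%) by edgeR, with a median log2 fold change of 0.34. modSP, which encodes the protease at the head of the immune Toll cascade, rose from 2.69 ± 0.735 to 6.16 ± 0.988 CPM (SD, n = 3, log2 fold change 1.19, SE 0.25, adjusted p = 0.0136 by edgeR). That call was lost without homozygous replicate 3 (adjusted p = 0.0641). MP1, a melanisation protease gene, had a log2 fold change of 0.36 (adjusted p = 0.026), and the call was lost in all 6 fits without 1 library. ndl, which encodes the protease that follicle cells supply for the embryonic cascade, was lower, at 49.2 ± 13.3 against 105 ± 20.9 CPM (log2 fold change -1.10, SE 0.25, adjusted p = 0.0395). That call needed homozygous replicate 3 and all FM7 replicates (adjusted p up to 0.111 when one of these was left out). SPE, which encodes the enzyme that cuts Spätzle after infection, was at 1.19 ± 0.909 against 0.221 ± 0.224 CPM and missed the threshold (log2 fold change 2.46, SE 0.78, adjusted p = 0.0567), as did grass (0.64) and Hayan (1.0). The proteases of the embryonic cascade gd (0.05), snk (-0.17) and ea (0.07) missed it as well. spirit, psh, sphe, sphinx1 and sphinx2 were too low to be tested.

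Serpins are the inhibitors of such proteases. Of 26 serpin genes, 14 were tested, 8 were higher (57.1%, against 11.7% of all tested genes) and 0 lower (against 7.75%) by edgeR, with a median log2 fold change of 0.86. At an unadjusted p under 0.05, 1 was lower, and by DESeq2 and by limma-voom 0 were. nec, the serpin gene that restrains the Toll cascade in adults, was at 10.2, 5.85 and 9.71 CPM in homozygotes and 1.52, 2.77 and 1.92 CPM in controls (log2 fold change 2.05, SE 0.30, adjusted p = 0.00365 by edgeR). Spn43Ab (2.16), Spn88Eb (3.99) and Spn77Ba (2.0), a tracheal inhibitor of melanisation, rose too, and these 4 calls held in all 6 fits without 1 library. The number of higher serpins was 4 without homozygous replicate 3 or FM7 replicate 1 and 5 without FM7 replicate 2.

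Of 12 genes for the Toll ligand, its recognition proteins, receptor and intracellular pathway, 11 were tested, 2 were higher (18.2%, near the 11.7% of all tested genes) and 0 lower (against 7.75%) by edgeR, with a median log2 fold change of 0.01. At an unadjusted p under 0.05, 1 was lower, as was 1 by DESeq2 and 0 by limma-voom. PGRP-SA, which encodes a receptor for bacterial peptidoglycan, was at 2.07, 1.67 and 2.91 CPM in homozygotes and 0.224, 0.213 and 0.188 CPM in controls (log2 fold change 3.38, SE 0.37, adjusted p = 0.00102 by edgeR). The NF-kappaB gene Dif also rose (1.10, SE 0.18, adjusted p = 0.00527). The ligand gene spz (-0.23, adjusted p = 0.0527) and the receptor gene Tl (0.01, adjusted p = 0.94) missed the threshold. Of 8 genes for prophenoloxidases and melanin enzymes, 7 were tested, 2 were higher (28.6%, against 11.7% of all tested genes) and 0 lower (against 7.75%) by edgeR, with a median log2 fold change of 0.81. None was lower at an unadjusted p under 0.05, by DESeq2 or by limma-voom. The higher ones were PPO1 (3.11, SE 0.29) and PPO2 (3.23, SE 0.30), which encode the enzymes of crystal cells, a haemocyte type, with adjusted p of 5.4e-04 and 5.0e-04 by edgeR.

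**Figure D4:**
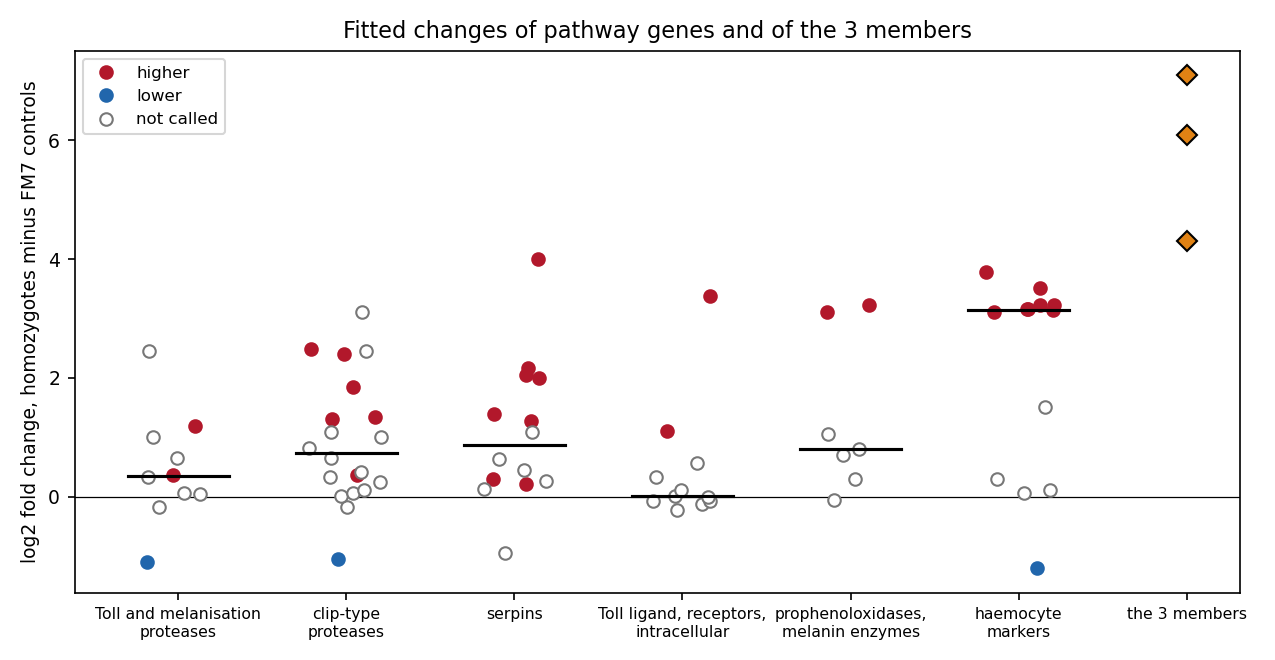
Fitted log2 fold change, homozygotes minus FM7 controls, of the tested genes of each list, with filled circles for genes past the threshold, open circles for the others and a bar at the median. The 3 neighbouring proteases are diamonds at 4.31, 6.09 and 7.10, values for which they were chosen, and the highest circle is the serpin gene Spn88Eb at 3.99.

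Markers of other cell types that an ovary sample can hold moved with the genotype as well. Of 15 haemocyte markers, 13 were tested, 8 were higher (61.5%) and 1, srp, was lower (7.69%) by edgeR, where 11.7% of all tested genes were higher and 7.75% lower. They summed to 345 to 413 CPM in homozygotes and 331 to 360 CPM in controls, sums made up largely of crq, at 216 and 208 CPM in the 2 groups, and the defining marker He had 3 counts in homozygotes and 0 in controls. The haemocyte gene Hml was at 5.58, 4.85 and 10.6 CPM in homozygotes and 0.717, 1.06 and 0.469 CPM in controls (log2 fold change 3.22, SE 0.41, adjusted p = 0.00209 by edgeR), and Pxn rose too (3.14). Among homozygotes the haemocyte sum, Hml, PPO1 and PPO2 were lowest in library 2, and Pxn was lowest in library 1. CG31220, CG31219 and CG7432 were highest in library 2, for CG7432 within counting error. Of 5 tested fat body markers 2 were higher (40%, against 11.7%), fit (5.24) and Apoltp (2.17), and the list of 10 summed to 27.0 to 71.5 CPM against 15.6 to 17.6 CPM. Of its untested members, Fbp1 (3 counts in homozygotes and 18 in controls), Fbp2 (1 and 10), Lsp1alpha (0 and 6) and Lsp1gamma (5 and 12) had fewer counts in homozygotes, and Lsp1beta (27 and 10) had more. Of 12 tested muscle markers 7 were higher (58.3%, against 11.7%), and they summed to 490 to 754 CPM against 359 to 428 CPM. Mp20 (0.95), Prm (0.61), bt (0.91) and Act57B (0.64), those with the smallest adjusted p, each missed the threshold when FM7 replicate 1 or 3 was left out, with an adjusted p of up to 0.106. Of 6 tested tracheal markers 2 were higher (33.3%, against 11.7%), dpy (1.90) and pio (2.03), with sums of 16.3 to 23.1 CPM against 6.99 to 8.14 CPM.

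Of 3 tested spermathecal genes, 1 was higher (33.3%, against 11.7%) by edgeR, Bbd (3.21), known for its part in the humoral Toll response, whereas DESeq2 called 2 and limma-voom 0. That list summed to 14.1 to 54.7 CPM against 1.61 to 6.51 CPM, with the highest sum in homozygote 1, and Send2 had 46, 3 and 0 counts in homozygotes 1 to 3 and 0 in controls. Of 3 tested neuronal markers, 0 were called in either direction by edgeR, DESeq2 or limma-voom, though 2 were higher at an unadjusted p under 0.05, and they summed to 5.24 to 8.78 CPM against 4.36 to 4.95 CPM. Of 21 gut serine proteases, 2 were tested and 0 called by any of these tools, also at an unadjusted p under 0.05. The part of these cell types in the counts of CG31220, CG31219 and CG7432 was not tested.

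By a measure of likeness that is led by the genotype difference, the 3 closest genes to each member did not include another member. Likeness was measured as the root mean square difference of log2 CPM, each gene centred on its own mean, over 6 libraries that share the genotype difference. Closest to CG31219 were Cngl, a cyclic nucleotide-gated channel-like gene on X (0.59), the noncoding lncRNA:CR46206 on 2L (0.62) and nompC, a mechanosensory channel gene on 2L (0.68). Closest to CG31220 were CG8483 on 3R (0.28), nAChRalpha3, an acetylcholine receptor subunit gene on X (0.29), and CG16995 on 2L (0.33). Closest to CG7432 were the small heat shock protein gene Hsp67Bc (0.33) and the gustatory receptor gene Gr64f (0.33) on 3L and asRNA:CR45195 on 3R (0.36). CG7432 ranked 29 among the 9149 genes in likeness to CG31220, at a difference of 0.69, whereas CG31219 ranked 714 at 1.48. In likeness to CG31219, CG31220 ranked 20 and CG7432, at 1.75, ranked 43, and in likeness to CG7432, CG31220 ranked 64 and CG31219 ranked 7190. The measure also counts the size of the rise, by which the 3 were chosen, so a low rank does not mean an opposite course. Nor does a close rank show a shared course. The prior count of 2 shrinks the rise of genes with so few control counts. By fitted log2 fold change, CG31220 (6.09) lay nearer to CG31219 (7.10) than to CG7432 (4.31), the reverse of the order by likeness. Hsp67Bc, the closest to CG7432, was at 8.06 CPM in homozygotes and 1.14 CPM in controls, a smaller rise. All 3 genes were higher in every homozygote. Counts of CG31219 per count of CG7432 were 25.0, 24.45 and 21.5 in homozygotes 1 to 3.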

How the data were processed

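The authors deposited a table of whole-number counts per gene or transposon family for 6 polyA ovary libraries, not normalised. Per the submitters' processing notes, the tools were STAR (2.7.8a), featureCounts (2.0.1) and DESeq2 (1.30.1), with no role named. The genome build, annotation, strand setting and treatment of multiply matching reads were not given in the sources used here. Overlapping or related genes may therefore share reads.

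The 3 genes and all lists were chosen with earlier results of these data known. Symbols and positions came from Ensembl release 115 (BDGP6.54), and 35 gene identifiers had no match (up to 0.0177% of a library). Genes and families were tested together with edgeR 4.0.16 in R 4.3.3 (TMM, filterByExpr, robust quasi-likelihood test, Benjamini-Hochberg, threshold 0.05), which was also tested on simulated data. SE is the unshrunken log2 fold change over the root of F. Genes near silent in controls, such as Spn88Eb, PGRP-SA and fit, passed the filter through the homozygotes. In every list, such genes could be called higher but not lower. limma 3.58.1 (voom) and DESeq2 1.42.0 were alternatives. Exact intervals (95%) and floors of 3 counts cover counting error only, and PCR duplicates are not independent molecules. A fold given as at least, by the floor, leaves out the counting error of the homozygous counts. Centred profiles used log2 CPM with a prior count of 2.

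Genes were named by rule: tested neighbours that were called and the nearest on either side, up to 6 called proteases by fold and up to 4 called genes of each other list by adjusted p in each direction, and the 3 closest profiles. Further list members are quoted by pathway role. A family picked by protein motifs was replaced by RefSeq names, of which 11 genes known not to be serine proteases were removed. The remaining genes were not checked by sequence, and some may not be proteases. Library pairs within a genotype exceeded sampling noise (chi-square per degree of freedom 8.61 to 41.6), so each was counted as 1 sample. Alternatives were other scalings, filters and tools, a replicate block and leaving out each library.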

Additional observations from a re-analysis of the deposited data

How the results depend on the processing

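No direction reversed under any alternative run. CG31219 had a log2 ratio of 6.83 to 7.5 without 1 library, CG31220 4.34 (a bound) to 6.77 and CG7432 3.81 (a bound) to 4.53, and both other scalings left the 3 values within the spread of homozygous libraries. Same-numbered libraries of the 2 groups did not deviate together (correlations -0.303, -0.071 and -0.0387 over 9229 features). With 3 libraries per group, such correlations cannot exclude that same-numbered samples were prepared together. With the replicate block, 674 genes were higher and 347 lower, 1 cascade protease and 5 serpins were higher, and CG17751 had an adjusted p of 0.0621. With library sizes alone, 320 genes were lower and 4 cascade proteases higher. Without the filter, 0 cascade proteases and 1 Toll pathway gene were lower by edgeR, and by DESeq2 1 Toll pathway gene was lower. Within 20 kb, 1 neighbour was higher. Without 1 library, counts ran from 522 to 976 genes higher and 225 to 853 lower, 0 to 2 cascade proteases higher and 0 to 1 lower, 4 to 7 serpins higher, 0 to 1 Toll pathway genes lower, 8 to 17 numbered proteases higher and 2 to 4 lower by edgeR, fits that hold fewer samples. The cause of the other shifts was not tested. The choice of proteases by motif was not run, for want of protein sequences. The limits are depth, since control counts of the 3 genes are 0 to 5, and the single contrast, which offers no samples other than those that chose them.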
